A study of Mus musculus with 13 samples.

Results

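The genes described here encode the cohesin ring and its shugoshin protectors: Rec8, Rad21, Smc1a, Smc1b, Smc3, Stag1, Stag2, Stag3, Sgo1 and Sgo2a. They were chosen as a gene family by symbol, by a rule that used no measured value but with earlier results of these data known, and all 10 were found among the 18939 genes of the count tables and in the larger table of FPKM values. RNA-seq had been carried out on 13 mouse oocytes, with 1 library per oocyte: 3 SN GV, 3 NSN GV, 4 SN-MII and 3 NSN-MII oocytes. GV oocytes hold an intact germinal vesicle, the large nucleus of prophase arrest, and in SN but not NSN oocytes the chromatin surrounds the nucleolus. MII oocytes have completed meiosis I and were matured in vitro from GV oocytes of the named type, so NSN-MII oocytes were those NSN oocytes that matured. In all groups the donors were C57BL/6 females of 3 to 4 weeks, primed with PMSG for 48 h, and every oocyte carried injected FBL-GFP mRNA. Each was held at the GV stage for 6 h in 10 μM Cilostamide and typed by the nucleolar FBL-GFP pattern, before its release to mature in the MII groups. The type of an oocyte was thus read from an injected reporter, and the labels do not say which oocytes came from the same female.

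Cohesin is a ring of SMC3, an SMC1 protein and a kleisin, to which a STAG protein binds, and it holds sister chromatids together from DNA replication until anaphase. Meiotic cells build it with REC8, SMC1B and STAG3 beside or in place of RAD21, SMC1A and STAG1 or STAG2. In oocytes the ring is loaded around meiotic DNA replication in the fetal ovary and has to last until ovulation. Separase cuts the kleisin along the chromosome arms at anaphase of meiosis I, while shugoshin brings the phosphatase PP2A to centromeres and keeps the kleisin there from being cut until meiosis II.

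Total counts lay between 7140416 and 8846287 per library. Each of the 8 oocyte markers examined was at or above 1 FPKM in every library. Of 12 cumulus and granulosa cell markers, 5 stayed under 1 FPKM throughout, among them Foxl2 and Ptx3, which were at 0 in every library. The summed FPKM of the 12 markers ranged from 27.4 to 37.3 in GV oocytes and from 39.3 to 65.0 in MII oocytes. Cyp19a1 alone lay at 16.8 to 53.1 FPKM over all libraries and Nr5a2 at 2.58 to 11.2 FPKM. Kitl, Inha, Star, Fshr and Has2 reached 7.58, 3.14, 1.58, 1.06 and 1.02 FPKM at most. The part of these cells in the results below was not tested. CPM values here are estimated counts relative to the library total, scaled by edgeR's TMM factor, and the order of values within a group follows the library numbers of the labels. They are shares of the poly(A)-primed RNA of a library, so the amount of an mRNA per oocyte and the length of its tail cannot be told apart from its share.

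The members' transcripts end in a 3′ untranslated region where the poly(A) tail is added next to a signal hexamer. In maturing oocytes the tails of stored mRNAs can be lengthened through a cytoplasmic polyadenylation element. AATAAA or ATTAAA, on the transcript strand, was found within the last 100 bases of the longest coding transcript in 8 of the 10 members. Smc1b and Smc3 held neither. The share was 81.4% of the 16863 genes with a 3′ untranslated region of at least 100 bases. The element in the form TTTTAT or TTTTAAT was found in this window in 1 member, Sgo2a, against 18.1% of these genes. For Rec8 only 34 bases of untranslated sequence are annotated, which shortens its window and leaves it outside these 16863 genes. Printed from GENCODE M21 transcripts on GRCm38 (mm10) are 30 bases around the hexamer of Rad21, at chr15:51962240-51962269 on the minus strand, around that of Stag3, at chr5:138312357-138312386 on the plus strand, and around the element of Sgo2a, at chr1:58025825-58025854 on the plus strand. The first belongs to a member that was higher at MII and the second to the member that was lower, and the third is the only element found. Capitals mark the motif.
Rad21: aaggtgagtttctgagcAATAAAagatttg
Stag3: tgccaaactttcAATAAAcatgttcagcta
Sgo2a: acttatgtatcaTTTTATcattaattctct
A match describes these letters and is no evidence that a factor binds there.

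Between the GV and the MII stage, 5 members were higher at MII and 1 was lower. Rad21, Smc3, Stag1, Sgo1 and Sgo2a were 2.01- to 3.38-fold higher, and Stag3, the meiotic STAG subunit, was lower, with 3 counts or fewer in each SN-MII library and up to 28 in NSN-MII libraries. Smc1a, Smc1b and Stag2 did not pass the test, and Rec8 was too low to be tested. Of all 11375 genes tested, 68.6% were called at this contrast, 31.7% higher and 36.9% lower, so that a called stage change was the rule among genes. The median log2 fold change was 1.01 over the 9 members tested and -0.10 over all genes, and the first value did not depend on the size fitted for Stag3, the lowest of the 9. Calls were made throughout where edgeR's quasi-likelihood test gave a p under 0.05 after Benjamini-Hochberg adjustment over all genes, and stage contrasts are the mean of the SN and NSN contrasts in 1 fit of all libraries unless a type is named. When libraries were scaled by their totals alone, the median of all genes moved to -0.39, and the same 6 members were called.

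**Figure D1:**
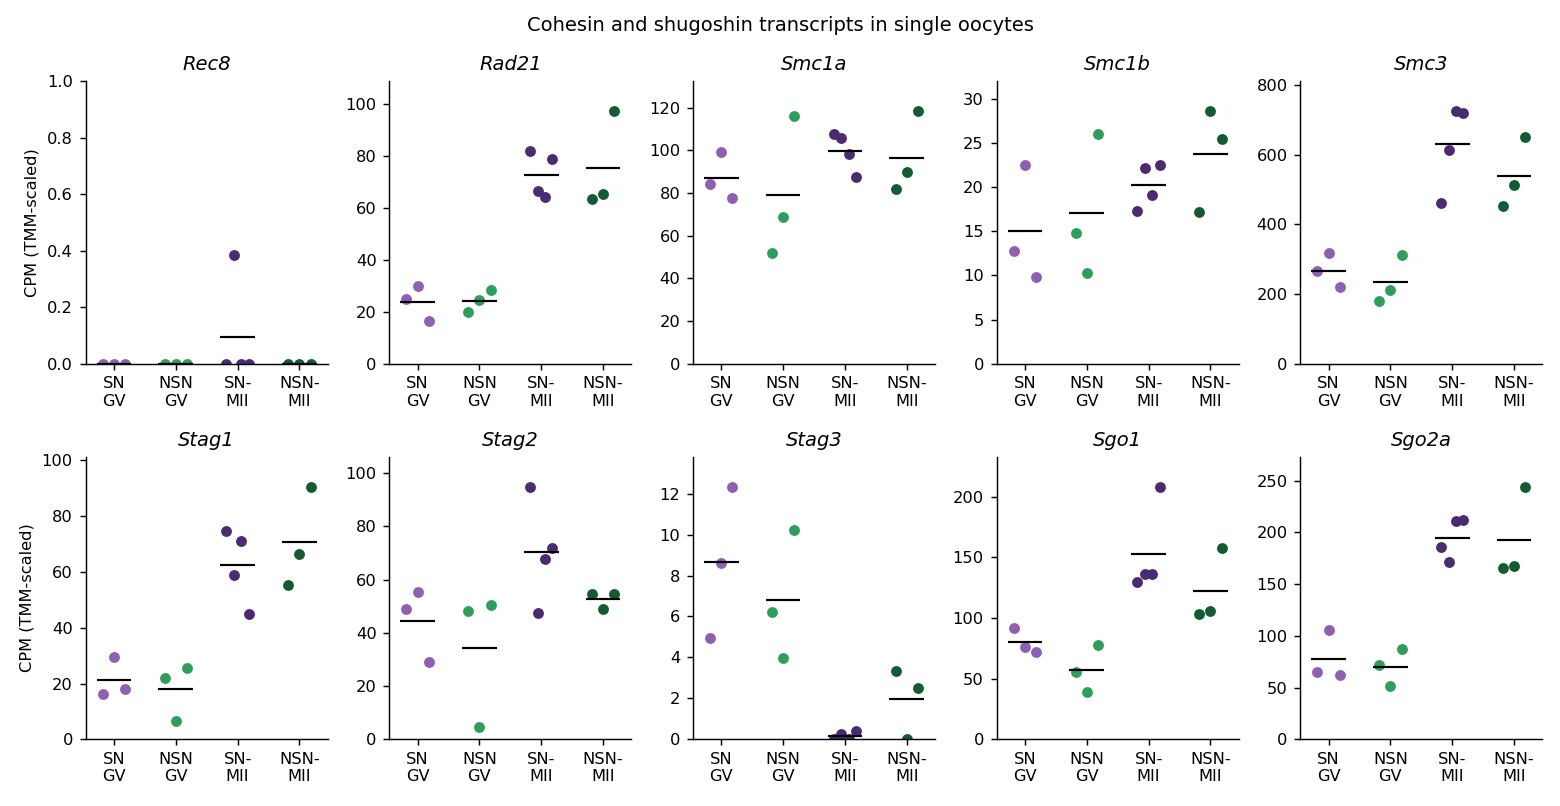
CPM of each member in each oocyte (points) with the group mean (bar), on a linear axis from 0 that differs between genes. Rad21, Smc3, Stag1, Sgo1 and Sgo2a were higher in all 7 MII than in all 6 GV libraries, Stag3 was lower, and Rec8 had counts in 1 library.

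Of the kleisins among the members, which close the ring, Rad21, the mitotic form, was measured in every oocyte and Rec8 was not. Rad21l, another kleisin gene outside the members, was at 0.36 to 2.27 FPKM at GV and 0.53 to 3.26 FPKM at MII. Rec8 (chr14:55618037-55625395), the meiotic kleisin that separase cuts at anaphase I, had 0 counts in 12 of 13 libraries. The exception was SN-MII library 2, with 3 counts, 0.385 CPM and 0.62 FPKM. The limit that a count of 0 allows, taken as 3 counts, equals 0.315 to 0.506 CPM across the libraries. Rec8 was thus at or under 3 counts in every library, in both types and at both stages. Rad21 (chr15:51962240-51991747), the kleisin of mitotic cohesin, stood at 25.1, 30.02 and 16.6 CPM in SN GV and at 19.96, 24.6 and 28.4 CPM in NSN GV oocytes. At MII it reached 82.1, 66.6, 64.4 and 78.9 CPM in SN-MII and 63.4, 65.6 and 97.4 CPM in NSN-MII oocytes. Every MII library was above every GV library. The log2 fold change of Rad21 was 1.62 (SE 0.19), a 3.08-fold higher level at MII with an adjusted p of 1.06e-06. CPM ranges of the stages were separate with the higher values at MII for 20.9% of all genes and with the lower values at MII for 26.5%.

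Of the SMC proteins, which form the arms and hinge of the ring, only the gene for the shared subunit passed the test. Smc3 (chr19:53600398-53645833) was at 265, 318 and 219 CPM in SN GV and at 179, 212 and 313 CPM in NSN GV oocytes. It was at 462, 614, 724 and 719 CPM in SN-MII and at 453, 512 and 651 CPM in NSN-MII oocytes, above every GV library. The log2 fold change was 1.22 (SE 0.17, adjusted p 9.29e-06). Smc1a (chrX:152016428-152062694), the SMC1 of mitotic cohesin, overlapped between stages, with 52.1 to 116 CPM over the GV and 81.8 to 118 CPM over the MII libraries. Its log2 fold change was 0.24 (SE 0.18, adjusted p 0.246), and -0.04 with library totals in place of TMM. NSN GV library 3 held the highest GV value, and without it the change was 0.44 (adjusted p 0.0222). The call also depended on the unit, since limma gave 0.47 on log2(FPKM + 1) (adjusted p 0.0378) and 0.49 on log2(FPKM + 0.1) (adjusted p 0.0398). Of the alternatives run, these 3 of 21 called Smc1a. Smc1b (chr15:85064689-85131964), the SMC1 of germ cells, was lower than Smc1a on the FPKM scale in every library. It gave 12.7, 22.5 and 9.81 CPM in SN GV, 14.8, 10.2 and 26.0 CPM in NSN GV, 17.2, 22.2, 19.1 and 22.5 CPM in SN-MII and 17.1, 28.6 and 25.5 CPM in NSN-MII oocytes. These groups overlapped, and the log2 fold change was 0.45 (SE 0.26, adjusted p 0.13). For this gene, too, single GV libraries decided the call, with 0.66 (adjusted p 0.0393) without SN GV library 2 and 0.68 (adjusted p 0.0284) without NSN GV library 3.

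The STAG subunits, which bind the kleisin and are alternatives to each other, moved in different directions. Stag1 (chr9:100597798-100959375) was at 16.2, 29.7 and 18.1 CPM in SN GV and at 22.2, 6.49 and 25.8 CPM in NSN GV oocytes. It was at 74.5, 59.0, 71.1 and 45.1 CPM in SN-MII and at 55.4, 66.4 and 90.5 CPM in NSN-MII oocytes, with no overlap between stages. Its log2 fold change of 1.76 (SE 0.28, adjusted p 3.32e-05) was the highest among the members on the CPM scale. On the FPKM scale it was at 1.64 to 7.92 over the GV and 8.54 to 20.8 over the MII libraries. Its mean FPKM went from 5.92 at GV to 14.85 at MII, and that of Rad21 from 5.898 to 16.69. Stag2 (chrX:42149317-42277185) was at 48.9, 55.4 and 29.1 CPM in SN GV, 48.2, 4.74 and 50.5 CPM in NSN GV, 94.8, 47.6, 67.7 and 71.8 CPM in SN-MII and 54.7, 48.8 and 54.7 CPM in NSN-MII oocytes. The stages overlapped, and the log2 fold change of 0.64 (SE 0.36, adjusted p 0.128) was not called. NSN GV library 2 had the lowest value of both Stag1 and Stag2. Without it the fold changes were 1.55 for Stag1 (adjusted p 1.08e-05) and 0.38 for Stag2 (adjusted p 0.108).

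Stag3 (chr5:138280240-138312393), which encodes the STAG subunit of meiotic cohesin, showed the opposite change. It was at 4.97, 8.63 and 12.3 CPM in SN GV and at 6.197, 3.99 and 10.2 CPM in NSN GV oocytes, from 32 to 103 counts a library. In SN-MII oocytes it was at 0, 0.257, 0 and 0.409 CPM, that is 3 counts or fewer in each library. In NSN-MII oocytes it was at 3.33, 0 and 2.53 CPM, so that 2 of the 3 libraries held counts above this limit, and all MII values were under all GV values on the CPM scale. On the FPKM scale the stages overlapped, with 1.92 to 7.41 at GV and 0 to 2.70 at MII. Both stages were low, and the fitted log2 fold change of -3.69 (SE 0.71, adjusted p 1.96e-04) rests on libraries at or under the limit of 3 counts, so its size is no bound. In SN oocytes the whole MII group was at that limit. The mean of 8.64 CPM in SN GV oocytes was 21.8-fold higher than 3 counts per SN-MII library. That ratio uses the GV mean, while the SN GV values ranged from 4.97 to 12.3 CPM.

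The shugoshins, which guard centromeric cohesin, were both higher at MII. Sgo1 (chr17:53674786-53689333), the shugoshin of mitotic centromeres, was at 91.5, 76.4 and 72.2 CPM in SN GV and at 55.4, 39.4 and 77.5 CPM in NSN GV oocytes. It was at 130, 136, 136 and 208 CPM in SN-MII and at 104, 106 and 158 CPM in NSN-MII oocytes. The log2 fold change was 1.01 (SE 0.19, adjusted p 1.57e-04), and 0.92 without SN-MII library 4, which held the highest value. Its FPKM values overlapped between stages, with 13.8 to 34.6 at GV and 32.5 to 68.2 at MII. Sgo2a (chr1:57995971-58025899), which encodes the shugoshin that protects REC8 in oocytes, was at 65.5, 105 and 62.0 CPM in SN GV and at 72.0, 51.5 and 87.3 CPM in NSN GV oocytes. It was at 186, 172, 211 and 212 CPM in SN-MII and at 166, 168 and 244 CPM in NSN-MII oocytes. Every MII library was above every GV library, and the log2 fold change was 1.39 (SE 0.18, adjusted p 3.42e-06). Kctd18 overlaps Sgo2a on the other strand, and the library protocol does not mark strand. Annotated genes also overlap Smc1a, Smc1b and Stag2 on the other strand and Stag1 on both strands, 3 of them on the strand of Stag1. Windows of 50 bases identical to another gene made up 2.68% of the Sgo2a transcript, all shared with Sgo2b, 1.56% of Smc3 and 0.34% of Sgo1, and none of the other members.

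The stage change was then taken within each type. In SN oocytes the same 5 members were higher and Stag3 was lower, where 25.1% of all genes were called higher and 31.2% lower. Of the genes called there, 44.6% were higher, and 33.5% with library totals in place of TMM. In NSN oocytes the 5 members were higher and none was lower, where 25.5% of all genes were called higher and 30.8% lower. The log2 fold changes of these 5 in SN and in NSN oocytes were 1.61 and 1.63 for Rad21, 1.24 and 1.199 for Smc3, 1.55 and 1.96 for Stag1, 0.93 and 1.09 for Sgo1 and 1.33 and 1.45 for Sgo2a. The call of Stag1 in SN oocytes held under 20 of 22 alternatives, with an adjusted p of up to 0.164 over these. It was lost, among others, with limma on log2(FPKM + 1), at 0.61 (SE 0.33, adjusted p 0.121).

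**Figure D2:**
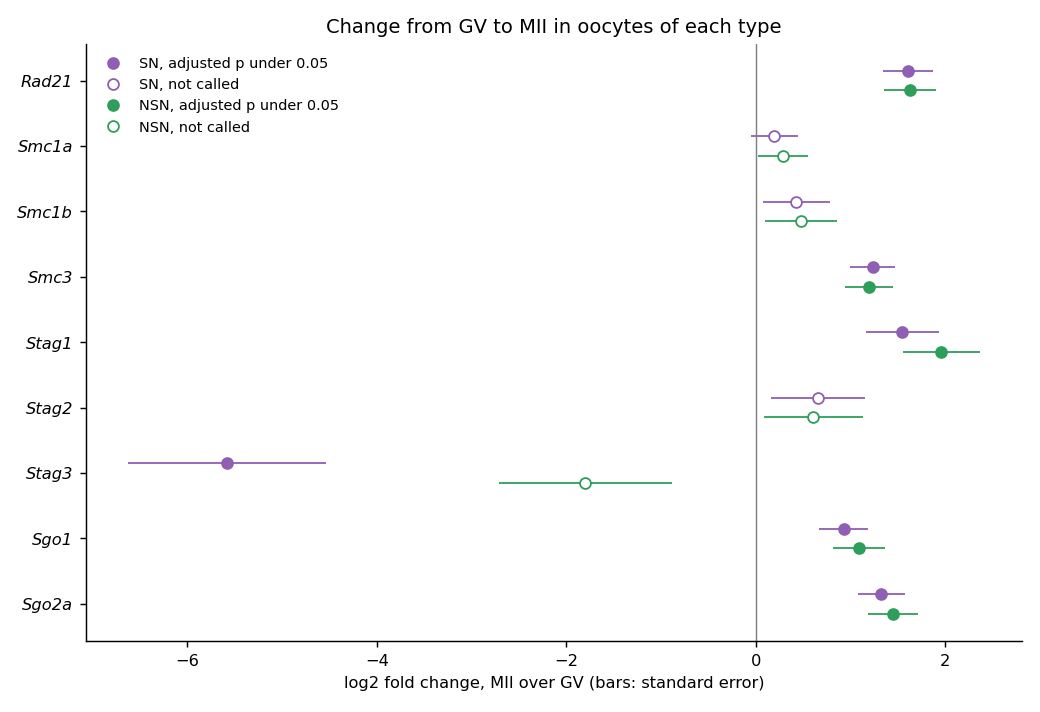
Log2 fold change of CPM from GV to MII in SN and NSN oocytes for the 9 members tested, with the standard error (bars) and filled points for an adjusted p under 0.05. The pairs of points lay close together except for Stag3, whose value in SN oocytes rests on MII libraries with 3 counts or fewer.

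Stag3 was called in SN but not in NSN oocytes, where the log2 fold change was -1.80 (SE 0.91, adjusted p 0.104). That alone is no difference between the types. The interaction of type and stage tests the difference, and it called 0 of the 9 members, against 0.0176% of all genes. For Stag3 it gave 3.78 on the log2 scale (SE 1.38, unadjusted p 0.0142, adjusted p 0.783), again fitted on libraries at or under 3 counts. DESeq2 and limma called 0 members as well. In edgeR's test the unadjusted p was under 0.05 for 5.33% of all genes, and among the members for Stag3 alone.

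The members were next compared between NSN and SN oocytes, the contrast that the reporter was used to make. At GV, 0 of the 9 members tested were called, and neither was any of the 10839 genes tested (0%), of which 190 (1.75%) had an unadjusted p under 0.05. Log2 fold changes of NSN over SN ranged from -0.46 for Sgo1 to 0.20 for Smc1b and were negative for 7 of 9 members. At MII, 0 of the 8 members tested were called, against 0.259% of 10028 genes, with values from -0.42 for Stag2 to 0.22 for Smc1b. Rec8 could be tested at neither stage, and Stag3 was below the filter on low counts at MII. DESeq2 and limma also called 0 members at either stage, and in edgeR's test 0 members had an unadjusted p under 0.05, which 9.38% of genes had at MII.

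The precision of these comparisons differed between members. At GV the 95% confidence interval of the log2 fold change of NSN over SN ran from -0.67 to 0.32 for Smc3 and from -0.59 to 0.67 for Rad21. For Stag2 it ran from -1.85 to 1.22 and for Stag1 from -1.31 to 0.92, so that for Stag2 differences of over 2-fold in either direction lay inside it. Both of these estimates turned positive without NSN GV library 2, to 0.20 for Stag2 and 0.21 for Stag1. At MII the intervals were narrower, from -0.41 to 0.36 for Sgo2a and from -0.45 to 0.34 for Smc1a, and the widest was that of Smc1b, from -0.35 to 0.80.

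**Figure D3:**
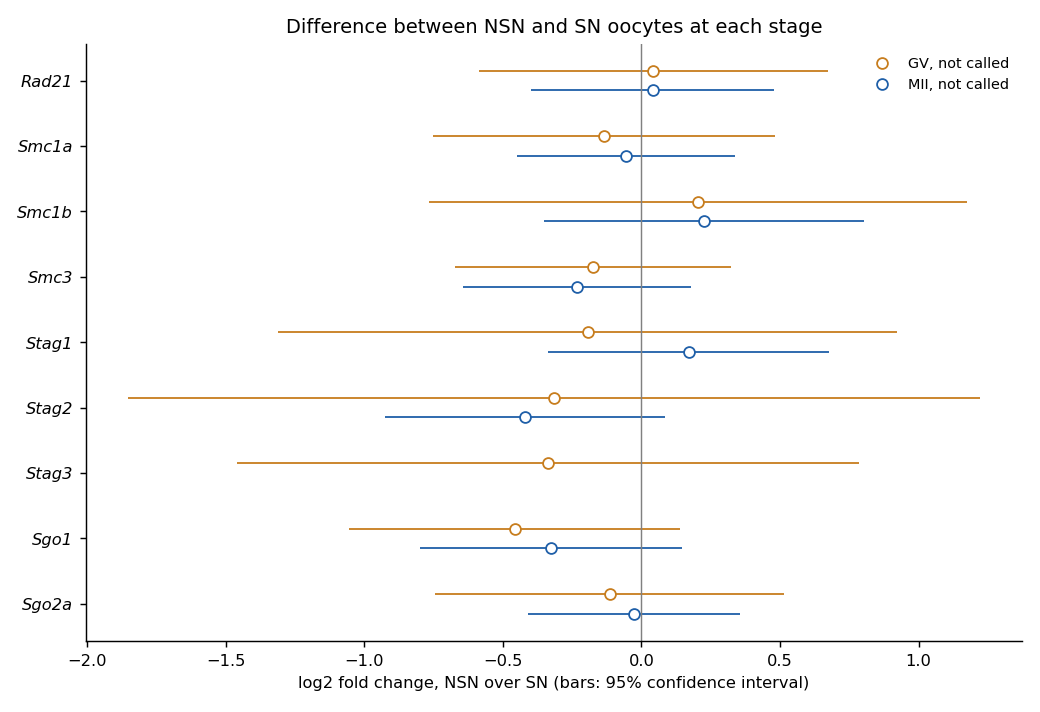
Log2 fold change of CPM between NSN and SN oocytes at GV and at MII with 95% confidence intervals (bars). Every interval included 0, and the interval of Stag2 at GV, from -1.85 to 1.22, was the widest. Stag3 was not tested at MII.

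Sgo1 was the member that came nearest to a difference between types at GV, and its outcome depended on the unit. On the FPKM scale SN GV oocytes had 34.6, 32.5 and 30.3 and NSN GV oocytes 18.6, 13.8 and 20.02, with no overlap. At GV, FPKM ranges of the types were also separate for 7.08% of the 9862 genes with a mean of at least 1 FPKM. On the CPM scale, given above, NSN GV library 3 lay within the range of the SN GV libraries, and the log2 fold change was -0.46 (SE 0.26, unadjusted p 0.116, adjusted p 1). With limma on log2(FPKM + 1) it was -0.87 (SE 0.21, adjusted p 0.9998). The number of counts behind 1 FPKM unit of Sgo1, relative to its mean over libraries, was 81.0% to 90.1% in SN GV and 96.4% to 133% in NSN GV oocytes. RSEM divides the counts of a gene by the lengths of the transcript forms it assigns them to, so this quantity moves with those forms.

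The same quantity was steady for Smc3, Sgo2a and Smc1b, with SDs of 0.12 to 0.14 percentage points over the 13 libraries, and nearly so for Rad21 at 1.89. It was least steady for Stag1, which ranged from 52.3% to 150% of its mean, with an SD of 26.9 percentage points, above that of 96.6% of 4093 genes with at least 100 counts in every library, a minimum that Stag1 itself did not reach. In SN-MII oocytes it was 114% to 150% and in NSN-MII oocytes 79.8% to 102%. FPKM of Stag1 was 14.8, 9.65, 14.96 and 8.54 in SN-MII and 18.4, 16.8 and 20.8 in NSN-MII oocytes, so the types were separate on this scale. At MII they were separate for 10.3% of the 9862 genes with a mean of at least 1 FPKM. On the CPM scale the Stag1 values of the types overlapped, and the log2 fold change was 0.17 (SE 0.23, adjusted p 0.899). Smc1a and Stag2 also varied, with SDs of 17.03 and 17.8 percentage points. For Smc1a the quantity was 106% to 124% at GV, 76.5% to 88.5% in SN-MII and 89.7% to 111% in NSN-MII oocytes.

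Levels of different members were compared on the FPKM scale, which takes length into account. Smc3 was the most abundant in every group, with means of 51.9 ± 8.09 (SD, n = 3) FPKM in SN GV oocytes and 46.5 ± 11.4 (SD, n = 3) FPKM in NSN GV oocytes. Its means at MII were 110.3 ± 19.9 (SD, n = 4) FPKM in SN-MII oocytes and 96.7 ± 6.98 (SD, n = 3) FPKM in NSN-MII oocytes. Its values did not overlap with those of the next member in any group. In SN GV oocytes Sgo1 followed at 32.5 ± 2.15 and Smc1a at 18.8 ± 3.67 FPKM (SD, n = 3 each), both separate from their upper neighbour. From Smc1a downwards, Sgo2a, Stag2, Stag1, Rad21, Stag3 and Smc1b each overlapped with the next, until Rec8 at 0. In NSN GV oocytes the values below Smc3 ran from Smc1a at 17.9 ± 7.71 to Stag3 at 3.02 ± 1.04 FPKM (SD, n = 3 each), and each neighbour overlapped with the next. At MII both types had Smc3, Sgo1, Sgo2a and Smc1a as the upper members, with Stag1, Stag2 and Rad21 below them in ranges that overlapped, and Smc1b separate below these. Stag3 and Rec8 came last and overlapped with each other. The order of the middle members depended on how length was taken into account. With CPM per kilobase of the longest transcript, 6 of 10 members kept their place in SN GV, NSN GV and NSN-MII oocytes and 8 in SN-MII oocytes.

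Within pairs of paralogs, the ratio of FPKM in each oocyte showed which form was more abundant. Smc1b was at 0.147 to 0.225 of Smc1a in SN GV and 0.174 to 0.297 in NSN GV oocytes, and at 0.115 to 0.214 in SN-MII and 0.182 to 0.286 in NSN-MII oocytes. The germ cell form was thus the minor SMC1 transcript in all 13 oocytes, with ranges that overlapped between the groups. Stag3 was at 0.135 to 0.509 of the sum of Stag1 and Stag2 in SN GV and at 0.131 to 0.557 in NSN GV oocytes. The value of 0.557 was that of NSN GV library 2, with 1.64 FPKM of Stag1, 1.81 of Stag2 and 1.92 of Stag3, each the lowest at GV. NSN GV libraries 1 and 3 were at 0.131 and 0.187. At MII, Stag3 was at no more than 0.00865 of the sum of Stag1 and Stag2 in SN-MII and 0.0829 in NSN-MII oocytes, below every GV oocyte. The ratio of Sgo2a to Sgo1 was 0.352 to 0.608 in SN GV and 0.685 to 0.858 in NSN GV oocytes, which did not overlap, and rests on the Sgo1 values described above. It was 0.501 to 0.899 in SN-MII and 0.796 to 0.974 in NSN-MII oocytes, which overlapped. Stag2 stood to Stag1 at 1.06 to 1.95 in SN GV and 1.10 to 3.99 in NSN GV oocytes, which overlapped. At MII this ratio was 1.02 to 1.84 in SN-MII and 0.571 to 0.956 in NSN-MII oocytes, which did not overlap. It rests on the FPKM of Stag1 and Stag2, whose counts per FPKM unit varied as described above. Smc3, which each ring needs whichever SMC1 it holds, was at 1.82 to 2.54 times the sum of Smc1a and Smc1b at GV and 2.29 to 4.67 times at MII. These ratios are descriptions without a test, and how often ratios of other genes separate between the types was not computed. For single genes, FPKM ranges of the types were separate for 7.08% at GV and 10.3% at MII, as given above.

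**Figure D4:**
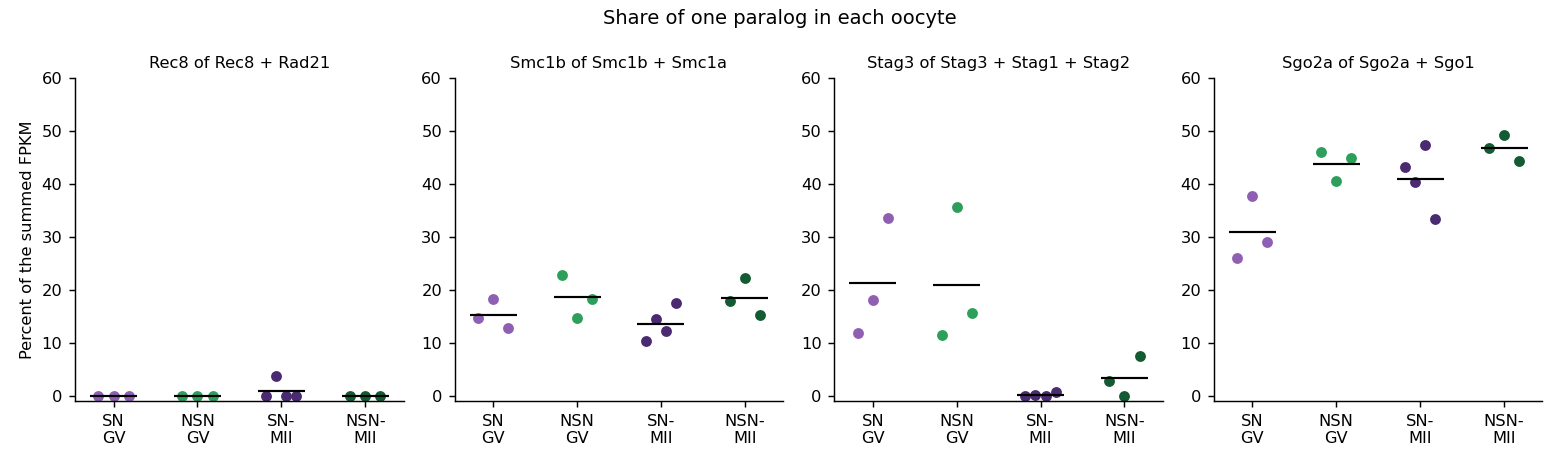
Share of the FPKM sum of a set of paralogs taken by the named form in each oocyte (points) with the group mean (bar), in percent. Stag3 took 11.6% to 35.8% of the STAG sum at GV and no more than 7.65% at MII, and Smc1b took 10.3% to 22.9% of the SMC1 sum.

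Proteins that load, release, acetylate, cut or protect cohesin form the neighbourhood of these genes. Of a list of 32 such partners and regulators 31 were tested, and 15 were higher and 8 lower at MII, beside the 31.7% and 36.9% of all genes given above. Their median log2 fold change was 0.52. No gene of the list was called between NSN and SN oocytes at either stage or in the interaction.

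Among the factors that load and release the ring, 3 of 5 were higher at MII. Nipbl, the loader, was at 22.3 to 74.9 CPM at GV and 157 to 218 CPM at MII, with a log2 fold change of 1.92 (SE 0.23, adjusted p 1.51e-06), the highest of the list. Wapl, which opens the ring, gave 1.57 (SE 0.21, adjusted p 4.01e-06), and its partner Pds5a gave 1.66 (SE 0.37, adjusted p 6.86e-04). Both acetyltransferases of SMC3 were higher, Esco1 by 1.81 (SE 0.25, adjusted p 8.21e-06) and Esco2 by 0.95 (SE 0.13, adjusted p 9.48e-06) on the log2 scale. Cdca5, which encodes sororin, the factor that opposes WAPL, was lower by contrast, with -1.27 (SE 0.17, adjusted p 6.61e-06).

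The genes of cohesin cleavage were both higher at MII. Espl1, which encodes separase, gave a log2 fold change of 0.91 (SE 0.23, adjusted p 0.00192), and Pttg1, which encodes its inhibitor securin, gave 1.26 (SE 0.16, adjusted p 2.11e-06). Centromeric protection was divided, with 4 genes higher and 5 lower of 11 tested. Meikin, a regulator of kinetochores and of cohesin protection in meiosis I, was at 17.1 to 34.5 CPM at GV and 0 to 2.86 CPM at MII, with -4.19 (SE 0.44, adjusted p 3.40e-07). Bub1, the kinase whose mark on histone H2A recruits shugoshin, was at 93.0 to 179 CPM at GV and 20.4 to 48.2 CPM at MII, with -2.29 (SE 0.19, adjusted p 1.69e-08). For Plk1, a kinase that acts with MEIKIN, the log2 fold change was -0.00 (SE 0.13, adjusted p 0.988). Ddx11, a helicase linked to cohesion, was at 167 to 238 CPM at GV and 6.13 to 20.3 CPM at MII, with -4.03 (SE 0.22, adjusted p 1.93e-10). Of the 4 cohesin kinases 3 were higher, and neither of the other subunits tested, Rad21l and Sgo2b, was called.

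**Figure D5:**
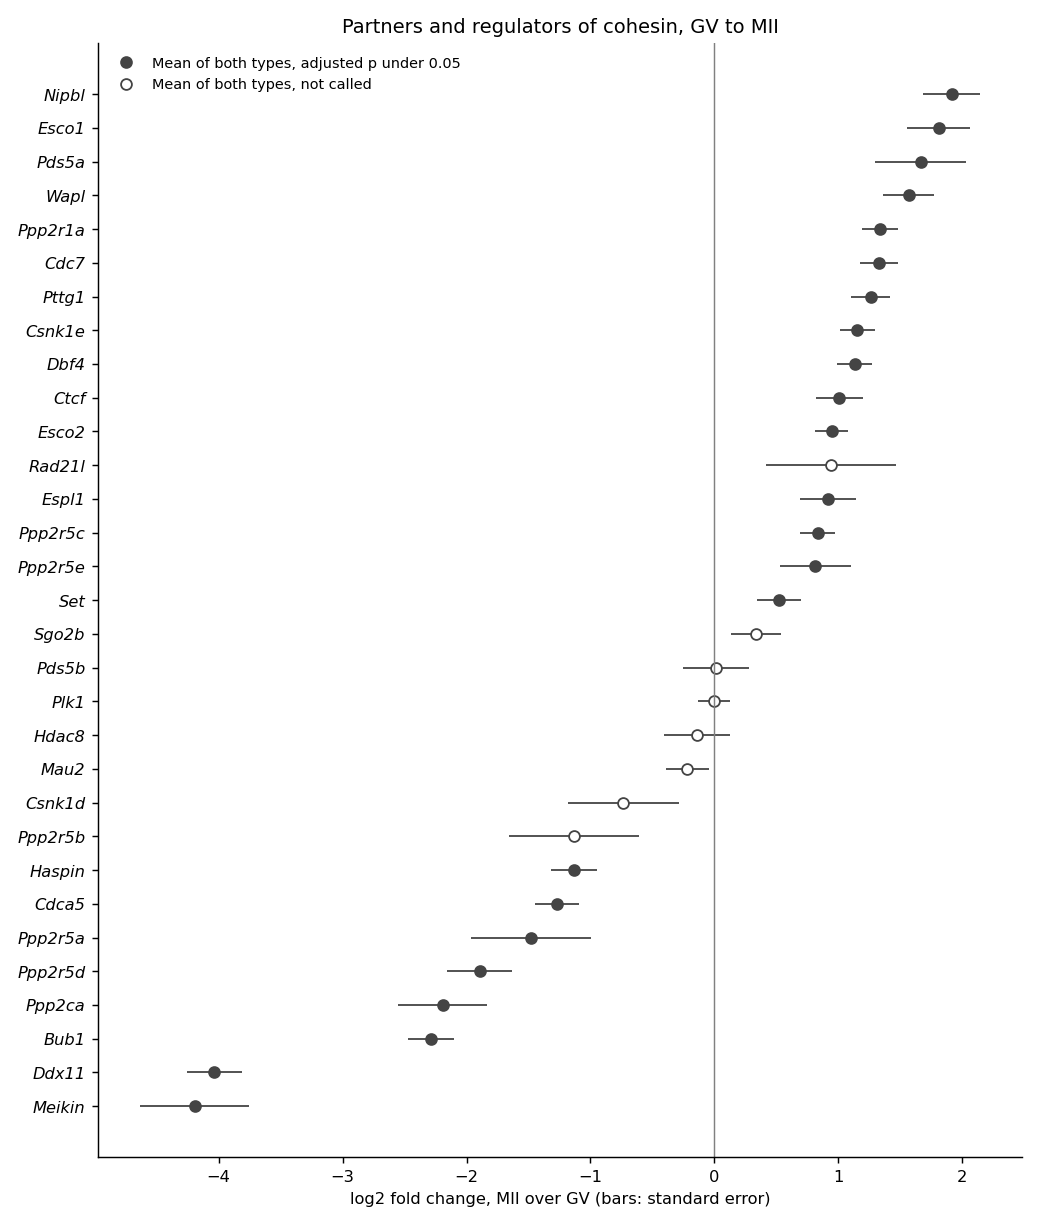
Log2 fold change of CPM from GV to MII, as the mean of both types, for the 31 partners and regulators tested, with the standard error (bars) and filled points for an adjusted p under 0.05. 15 genes were higher, from Nipbl at 1.92 downwards, and 8 were lower, from Meikin at -4.19 upwards.

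Genes whose pattern over the 13 libraries was most like that of a member were sought among 11516 genes with a mean of at least 1 FPKM, by the root mean square difference of log2(FPKM + 1) after centring each gene on its mean. Nearest to Sgo2a were Rnf2 at 0.128 and Map2k4 at 0.147, and nearest to Smc3 were Slc35a1 at 0.155 and Ankrd6 at 0.157, all in log2 units. Rnf2 went from a mean of 77.7 FPKM at GV to 163 at MII, and Slc35a1 from 19.9 to 42.4. For Rec8, listed at 0 in all but 1 library, the nearest genes were Mpg at 0.166 and Tbx3os1 at 0.178, beside a spread of Rec8 itself of 0.193 (SD), so that they were genes with little variation rather than genes with a shared pattern.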

How the data were processed

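Single oocytes were sequenced after SMART-seq2 amplification and tagmentation. The authors trimmed reads (Trim Galore 0.4.4), mapped them to mm10 (Bowtie2 2.3.5) and quantified Refseq genes with RSEM 1.2.28, and the submitters' notes also name DESeq2 1.20.0. The authors deposited the expected count of each gene in a table per stage, in which reads shared between genes are divided, and deposited FPKM in a single table, scaled by length and library size. Up to 20.1% of the nonzero counts of a library were not whole, and all were rounded here. No column was left unused.

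Genes were filtered with filterByExpr, libraries scaled by TMM, and groups, taken from the labels, compared with edgeR 4.0.16 (R 4.3.3) by the quasi-likelihood test with Benjamini-Hochberg adjustment over all genes tested. Types were compared within a stage, and stages and the interaction in a single fit of 4 groups. DESeq2 1.42.0, limma 3.58.1 on log2(FPKM + 1) or log2(FPKM + 0.1), other scalings, no filter, a 1.5-fold minimum, the replicate number as a block and leaving out each library were alternatives. No unique molecular identifiers are named, so limits of 3 counts cover counting error only. No source says that oocytes came from separate animals, so p-values measure the spread between these oocytes. No 2 of the 78 library pairs agreed within counting noise. The edgeR step was tested on simulated data with changes larger than the differences of the members between types. That test therefore does not show whether differences of their size could be called.

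The members and lists were chosen with earlier results of these data known. The text names all members, the 3 list genes with the highest and the 3 with the lowest called stage change, Espl1, Pttg1, Wapl, Nipbl, Esco2, Cdca5, Meikin and Plk1, list genes called between types, and the 2 genes most like Rec8, Sgo2a and Smc3. Coordinates are from GENCODE M21. Promoters, for which RefSeq entries of 8 members were at hand, were not used here.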

Additional observations from a re-analysis of the deposited data

Results flagged for a closer look

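Sgo1 in SN-MII library 4 stood apart from its group, at 208 CPM (208.1) against 129.7, 136.3 and 136.1 CPM in the other SN-MII libraries, a gap of 0.916 of the range of the group. Such a gap was looked for in the 8 members above 3 counts in that group, the only group with 4 libraries, and chance gives about 1 in 20 groups one. Without this library, Sgo1 gave a log2 fold change of -0.14 between NSN-MII and SN-MII oocytes (adjusted p 0.927) in place of -0.33 (adjusted p 0.711).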

How the results depend on the processing

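The number of members called moved little. It was 6 to 8 of 9 between the stages, 5 to 7 in SN oocytes and 5 to 6 in NSN oocytes over all alternatives, and 0 between types and in the interaction under each. Of 1037 member values under alternatives, 62 changed sign, none of them called. In the comparison of types at MII, Sgo2a changed to 0.0087 and 0.0089 with limma on log2(FPKM + 1) and log2(FPKM + 0.1). With library totals, Smc1a changed to -0.044 between the stages and to -0.092 in SN oocytes. In the interaction, limma on log2(FPKM + 1) gave -0.051 for Rad21, -0.15 for Smc1a and 0.16 for Stag2, and on log2(FPKM + 0.1) -0.066 for Rad21, -0.15 for Smc1a, 1.57e-05 for Smc3 and 0.28 for Stag2. The cause was not tested.

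Leaving out 1 library at a time changed the sign of 18 uncalled values. At GV between types these ranged from -0.48 to 0.21 for Stag1, -0.27 to 0.14 for Sgo2a, -0.15 to 0.22 for Rad21, -0.19 to 0.59 for Smc1b, -0.71 to 0.041 for Stag3, -0.49 to 0.056 for Smc1a and -0.71 to 0.20 for Stag2. At MII they ranged from -0.17 to 0.14 for Rad21, -0.21 to 0.063 for Sgo2a, -0.21 to 0.046 for Smc1a and -0.025 to 0.31 for Stag1. In the interaction they ranged from -0.21 to 0.23 for Rad21, -0.13 to 0.49 for Smc1a, -0.36 to 0.50 for Smc1b, -0.16 to 0.32 for Sgo2a, -0.21 to 0.23 for Smc3, -0.57 to 0.33 for Stag2 and -0.076 to 0.44 for Sgo1.

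The replicate number of the labels showed no clear pairing of the oocytes. Deviations from the group means correlated above 0.1 in 2 of 18 same-numbered pairs (r from -0.46 to 0.20). Both were pairs of NSN GV with NSN-MII oocytes (r of 0.19 and 0.20). With so few libraries per group, this cannot decide whether oocytes shared a female or a day. With a replicate block the number of members called stayed at 6 between the stages, 6 in SN and 5 in NSN oocytes, and the interaction of Smc3 and Stag2 changed to 0.088 and 0.26. For all genes between types at MII the block gave 2 calls in place of 26, DESeq2 217, no filter 89, all libraries in 1 fit 69, library totals 16, and limma 9 and 6. For the interaction DESeq2 gave 39 calls and no filter 6 in place of 2, and library totals 3. Of the members in order of FPKM, 6 kept their place with CPM per kilobase in SN GV, NSN GV and NSN-MII oocytes. Rec8 in all groups and Stag3 in SN-MII oocytes had 3 counts or fewer in each library, and whether more depth would change that was not tested.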
